A study of Mus musculus with 15 samples.

Results

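Cytosolic ribosomal proteins are the protein building blocks of the ribosomes that read messenger RNA in the cytoplasm. Members were chosen by name: a symbol made of Rpl or Rps and a number with at most one of the letters a, l or x, or Rplp0, Rplp1, Rplp2 or Rpsa. Genes of the Rps6k family, names ending in l1 and pseudogenes were left out. This gave 46 of the 18193 genes analysed, 22 of the small 40S subunit and 24 of the large 60S subunit. Their messenger RNAs were read with the Mouse Genome 430 2.0 GeneChip of Affymetrix, which holds sets of short probes for each gene, in pooled livers of adult males. The question was whether the liver transcripts of males that were malnourished around birth resemble those of their sons. There were 15 pools, 1 to an array and 3 to a group (the 3 in the titles is taken to mean that each pool held 3 livers), and 5 groups. IUGR F1 pools (numbers 4 to 6) came from males whose food supply before birth was restricted by 50%, where IUGR is the label for intrauterine growth restriction. ON F1 pools (7 to 9) came from males overfed while suckling. IUGR F2 pools (10 to 12) and ON F2 pools (13 to 15) came from the male offspring of IUGR males and of ON males. Control pools (1 to 3), by their titles, held livers of control males of both generations together. The series' design text instead names control males and sons of control males as separate groups. The labels of these pools do not separate them, so what each comparison with control is set against rests on the titles. All 4 comparisons with control share these pools. No strain or genotype is given in the labels. The labels do not tie a pool to a litter, and p-values cover only the spread among these pools.

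A ribosome is assembled in the nucleolus, where ribosomal RNA made by RNA polymerase I is cut, modified and joined by ribosomal proteins imported from the cytoplasm. The subunits need one copy of nearly every protein, and the genes are transcribed at high rates in most cells, including hepatocytes, which make most plasma proteins. Their messenger RNAs begin with a C followed by a run of pyrimidines, the 5′ terminal oligopyrimidine (TOP) motif, through which the growth-sensing kinase mTORC1 controls their translation. An array reads the amount of these messenger RNAs and not their translation. In whole liver, fewer cells of a type and less RNA per cell cannot be told apart.

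The start sites of members that the results below turn on are shown first, because the TOP run is the sequence feature the family is known for. RefSeq promoters (build GRCm38.p6, 250 bases before to 50 after the annotated start) were matched by symbol to 40 of the 46 members. Each line gives 40 bases, from 25 before the start, on the strand of the gene. Capitals mark the longest run of at least 6 pyrimidines that opens with C and reaches into the stretch from 10 bases before to 15 after the start.
Rps10 (chr17:27635230-27635269, minus strand): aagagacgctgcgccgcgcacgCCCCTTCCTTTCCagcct
Rps18 (chr17:33955651-33955690, minus strand): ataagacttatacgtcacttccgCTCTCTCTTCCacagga
Rplp2 (chr7:141447626-141447665, plus strand): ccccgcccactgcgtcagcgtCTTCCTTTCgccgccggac
Rpl12 (chr2:32961687-32961726, plus strand): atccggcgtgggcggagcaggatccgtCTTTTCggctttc
Rps25 (chr9:44407689-44407728, plus strand): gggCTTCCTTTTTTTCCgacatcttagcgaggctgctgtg
Rplp0 (chr5:115559442-115559481, plus strand): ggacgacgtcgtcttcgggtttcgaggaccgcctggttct
Rpl37 (chr15:5116588-5116627, plus strand): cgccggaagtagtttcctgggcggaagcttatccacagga
Rpl3l (chr17:24727801-24727840, plus strand): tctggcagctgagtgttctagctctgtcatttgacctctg
The first 5 genes hold such a run and the last 3 hold none in this window, which depends on where the annotation puts the start.

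Over the family, 26 of 40 members (65.0%) held such a run at an annotated start, against 7944 of 27025 genes with a promoter (29.4%). The letters CCGGAAG, which contain the GGAA core bound by ETS factors, were found on either strand within the 300 bases in 20 members (50.0%) and in 9.9% of all genes. Their reverse complement opens with pyrimidines, so both features can share bases. The letters AAGATGG, as in the YY1 motif, were found in 7 members (17.5%) and in 7.3% of all genes. The TATA box letters TATAAA were found in 5 members (12.5%) and in 15.7% of all genes. A match describes the letters only.

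Hepatocyte markers were bright in all pools, with albumin (Alb) between 14.41 and 14.49. Levels are log2 RMA (robust multi-array average) values, on which a difference of 1 is a doubling of the probe signal. Correlations between arrays across probe sets were 0.9832 to 0.9954, and 0 pairs of arrays were identical. Of exocrine pancreas markers, 9 were measured. Their summed level was 48.71 to 83.12 in ON F2 pools, the highest in pool 13, and 46.85 to 49.43 in all other pools, and none of these log2 levels was 0. Of 7 skeletal muscle markers, the sum was 34.34 in IUGR F1 pool 5 and 27.64 to 29.40 in the other pools. The family median against control was -0.017 for IUGR F1 without pool 5 and -0.025 for ON F2 without pool 13. The gap between 3′ and 5′ probe sets of the actin control, which widens as RNA gets shorter, ran from 1.76 to 2.28 (log2) and is set beside the pools below.

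Ribosomal protein genes were among the brighter genes of the array and varied little. The 46 mean levels had a median of 11.71 and lay between 2.97 and 13.32. Of these, 33 stood at 10 or more, and 35 at 8 or more. The other 11 stood below 8, which were Rps16, Rpl3l, Rpl39l, Rpl14, Rpl12, Rps25, Rps4l, Rpl39, Rps27, Rpl37 and Rps6. A low level can reflect probes that hybridise poorly as well as little messenger RNA, and RMA compresses differences near background. Over the 15 pools, the 35 brighter members spanned a median of 0.313 between their lowest and highest pool (0.170 to 0.747). All 3610 genes with a mean of at least 8 spanned a median of 0.437. The SD within groups had a median of 0.082 in the 35 members and of 0.108 in the 3610 genes. The spread between the 5 group means had a median of 0.118 in the members and of 0.216 in those genes. Members and genes were not matched by level here: 33 of the 35 members stood at 10 or more, against 1070 of the 3610 genes.

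No ribosomal protein gene passed the test in any comparison. Differences were tested with limma in a single fit of all 18193 genes and 15 arrays, and a gene was called at a Benjamini-Hochberg adjusted p under 0.05. The fit called 0 members in each of the 8 comparisons between groups, in the lineage by generation interaction and in the F test over all 5 groups. Against control, the share of all genes called was 0% for IUGR F1, 0.022% for ON F1, 0% for IUGR F2 and 0% for ON F2. The share was 0.011% for IUGR F2 against IUGR F1 and 1.43% for ON F2 against ON F1. It was 0.011% for IUGR F1 against ON F1, 0.0055% for IUGR F2 against ON F2, 0.011% for the interaction and 0.187% for the F test. At an unadjusted p under 0.05 the F test took in 7 members (15.2%) and 18% of all genes. These were Rps20, Rpl12, Rpl3l, Rpl14, Rps29, Rpl37 and Rps4l, and the smallest adjusted p among them was 0.147, for Rps20 (limma). Standard errors of a difference had a median of 0.081 over the members and 0.104 over all genes, which limits the differences that 3 pools a group can resolve.

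**Figure D1:**
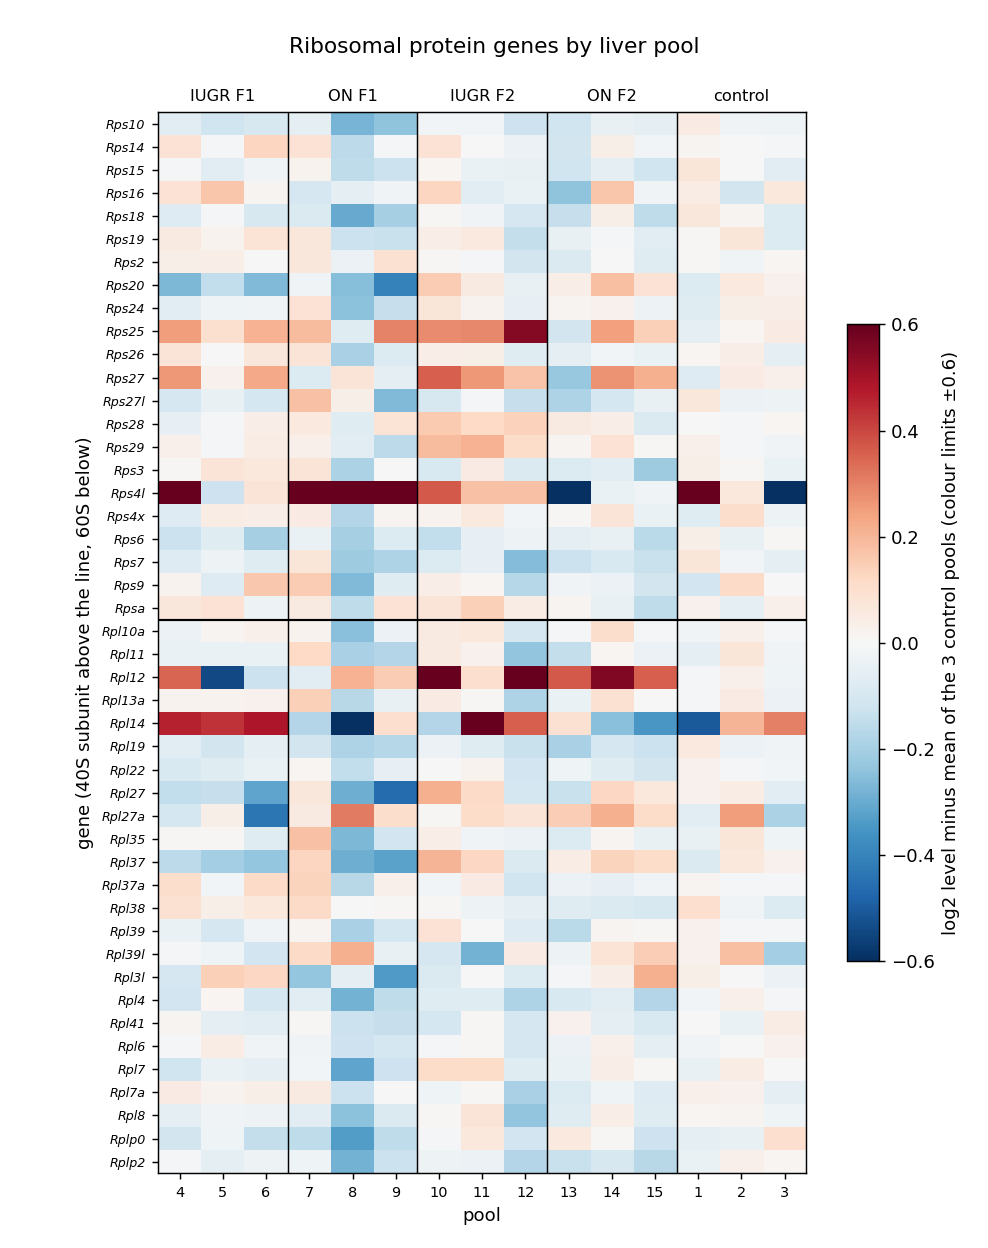
Level of each of the 46 ribosomal protein genes (rows, 40S above the line and 60S below) in each of the 15 liver pools (columns, by group) as the log2 difference from the mean of the 3 control pools. Colours end at 0.6 in either direction. Most bright genes are pale throughout, ON F1 pool 8 is the bluest column, and the strong colours lie in dim genes such as Rps4l, Rpl12 and Rpl14.

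In livers of males underfed before birth (IUGR F1), the members lay on both sides of control. There 21 were higher and 25 lower, with 47.7% of all genes lower, and the median difference was -0.026, which turned to 0.0008 with a second quantile normalisation and to 0.014 with each array centred on its genes of at least 5. The unadjusted p was under 0.05 for 0 members higher and 1 lower (2.2%), beside 5.46% and 2.97% of all genes. The 3 IUGR F1 pools lay wholly below the control pools in 9 members (19.6%) and wholly above in 2 (4.3%), beside 5.89% and 8.59% of all genes. The 9 were Rpl19, Rpl22, Rpl27, Rpl37, Rpl39, Rps10, Rps20, Rps27l and Rps6, and the 2 were Rpl14 and Rps25. Genes with a mean of at least 8 had median deviations of -0.016, -0.041 and -0.041 in pools 4, 5 and 6. The 35 brighter members had -0.035, -0.013 and -0.029 there. The share of those brighter genes with no overlap was not counted. The Kupffer cell markers also stood apart in this group: all 10 measured were below the control mean in each IUGR F1 pool, with summed levels of 62.20 to 63.07 in IUGR F1 and 65.18 to 69.96 in control pools. In IUGR F2, pools 10 and 12 also had low sums (62.52 and 63.29) and pool 11 did not (68.22). None of these levels was 0, and their part in the ribosomal values was not tested.

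The smallest p belonged to Rps20, a protein of the 40S head. Rps20 stood at 11.97, 12.10 and 11.98 in IUGR F1 pools and at 12.16, 12.30 and 12.27 in control pools. The groups did not overlap, and the difference was -0.23 ± 0.09 (SE, limma adjusted p = 0.535). Rps6 is the 40S protein that S6 kinase phosphorylates when nutrients activate mTORC1. It stood at 7.75, 7.81 and 7.68 in IUGR F1 pools and at 7.92, 7.84 and 7.89 in control pools, a difference of -0.13 ± 0.07. Rpl37, a zinc-binding 60S protein, differed by -0.20 ± 0.11, with IUGR F1 pools at 7.55, 7.50 and 7.47 and control pools at 7.62, 7.77 and 7.73. Rpl14, a dim 60S member, differed the other way by 0.46 ± 0.24. Its IUGR F1 pools were close together at 5.86, 5.84 and 5.89, and the control pools were spread over 4.90, 5.60 and 5.70.

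In livers of males overfed during lactation (ON F1), most members lay below control, by small amounts. There 37 members were lower and 9 higher, with 45% of all genes lower. The median difference was -0.067, and it stayed negative at -0.058 and -0.051 under a second quantile normalisation and median centring. The median of all genes was 0.019. Genes with a mean of at least 8 had median deviations of -0.0087, -0.061 and -0.0315 in ON F1 pools 7, 8 and 9. With an unadjusted p under 0.05, 7 members were lower (15.2%) and 0 higher, beside 5.03% and 8.97% of all genes. Also 7 members (15.2%) had all 3 ON F1 pools below all control pools, beside 6.23% of all genes, and 0 had them above, beside 10.2%. The first 7 were Rps10, Rplp0, Rps18, Rps20, Rpl19, Rpl3l and Rpl4. In the second 7, Rpl8 took the place of Rps20. Of the 35 brighter members, 21 had their lowest group mean in ON F1, 9 in ON F2, 3 in IUGR F2, 2 in IUGR F1 and 0 in control pools. The share of all genes with their lowest group mean in ON F1 was not counted.

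Rps10 is a protein of the 40S head that is marked with ubiquitin on collided ribosomes. It stood at 12.23, 12.01 and 12.05 in ON F1 pools and at 12.34, 12.27 and 12.26 in control pools. Pools 8 and 9 were far below control and pool 7 just below, for a difference of -0.19 ± 0.07 (limma adjusted p = 0.271). Rplp0 anchors the stalk of the 60S subunit, the arm that recruits elongation factors. It stood at 12.02, 11.83 and 12.02 in ON F1 pools and at 12.11, 12.12 and 12.27 in control pools, a difference of -0.21 ± 0.08 with no overlap (adjusted p = 0.285). Its stalk partner Rplp2 stood at 12.04, 11.78 and 11.94 in ON F1 pools and at 12.03, 12.10 and 12.08 in control pools. Those groups overlapped through pool 7, and the difference was -0.15 ± 0.08 (adjusted p = 0.406).

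Rps18, a 40S head protein near the bridge to the large subunit, differed by -0.20 ± 0.08 (adjusted p = 0.298). Its ON F1 pools stood at 12.26, 12.04 and 12.15 and its control pools at 12.41, 12.36 and 12.26. Rps20 differed by -0.23 ± 0.09 (adjusted p = 0.306), from 12.22, 11.99 and 11.84 in ON F1 pools against 12.16, 12.30 and 12.27 in control pools, with pool 7 inside the control range. At the most variable probe set of each gene in place of the brightest, Rps10, Rps18 and Rps20 differed by 0.15, 0.04 and 0.21. The sets read there were dim for Rps10 and Rps20, with means of 4.77 and 4.31. The 4 bright sets of Rps10 differed by -0.19, -0.15, -0.13 and -0.10 in ON F1 against control.

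The lower family median of ON F1 came from pools 8 and 9 and not from pool 7. Over the 35 brighter members, the median deviation from the control mean was 0.054 in pool 7, -0.18 in pool 8 and -0.11 in pool 9. Pool 8 held 33 of the 35 below the control mean and the lowest of all 15 values in 18 of them. Pool 7 held 10 below it and was the pool with the highest family median. Over all 46 members, the median difference of ON F1 from control was -0.035 without pool 8 and -0.14 without pool 7.

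Other pools ranked low too: IUGR F2 pool 12 at -0.10, with 31 of 35 below the control mean, and ON F2 pools 15 and 13 at -0.066 and -0.056. The IUGR F1 pools lay between -0.035 and -0.013 and the control pools between -0.022 and 0.015. All 7 stellate cell markers measured were below the control mean in IUGR F2 pools 10 and 12 and in ON F2 pool 14. Their sums were 45.66, 48.40 and 46.16 in the IUGR F2 pools and 48.75 to 49.93 in control pools. Of 6 cholangiocyte markers, all were above the control mean in ON F1 pools 8 and 9, with median deviations of 0.32 and 0.43, and of 0.034 in pool 7. Their sums were 31.58 to 32.11 in the ON F1 pools and 29.60 to 29.92 in control pools. None of these levels was 0, and the part of either cell type in the ribosomal values was not tested. Genes with a mean of at least 8 had a median deviation of -0.087 to 0.021 across the pools, and of -0.061 in pool 8.

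For the 35 brighter members, the 4 pools with the lowest median were the 4 with the widest actin gap. That gap was 2.28 in IUGR F2 pool 12, 2.22 in ON F1 pool 8, 2.10 in ON F2 pool 15 and 2.09 in ON F1 pool 9, and 1.76 to 2.06 in the other 11 pools. With all 46 members, ON F2 pool 13 took the place of pool 15 among the 4 lowest (medians of -0.057 and -0.044). The actin gap of pool 13 was 1.95. The Gapdh gap was 1.45 in pool 12, 1.43 in pool 8 and 1.31 in pool 9, 1.28 in control pool 1 and 1.16 in pool 15. By group, the actin gap averaged 1.88 in the IUGR F1 pools, 2.08 in the ON F1 pools, 2.02 in the IUGR F2 pools, 2.03 in the ON F2 pools and 1.87 in control pools. With the actin gap as a covariate, the median difference over the 46 members was -0.019 for ON F1 against control, with 26 lower and 20 higher. It was then 0.037 for IUGR F2 and 0.017 for ON F2 against control. In that fit, Rplp0 differed by -0.11 and Rps10 by -0.14 in ON F1, with adjusted p of 0.649 and 0.565.

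**Figure D2:**
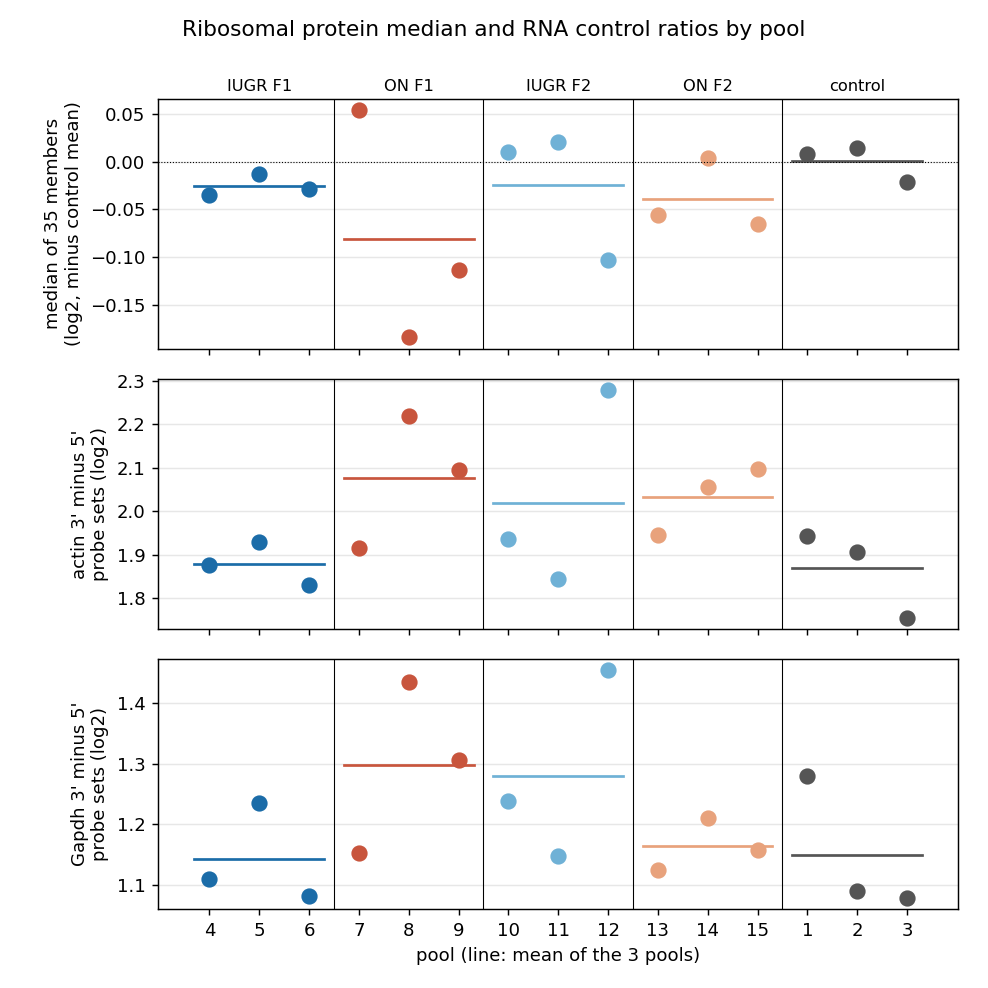
Median log2 deviation of the 35 ribosomal protein genes with a mean of at least 8 from the control mean (top), and the gap between 3′ and 5′ control probe sets of actin (middle) and Gapdh (bottom), in each pool, with lines at the mean of 3 pools. Pools 8, 9 and 12 are lowest in the top panel, and pools 8 and 12 are highest in both lower panels.

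In sons of IUGR males (IUGR F2), the family as a whole lay near control, and a few members stood above it. There 20 members were higher and 26 lower (53.4% of all genes were lower), and the median difference was -0.022, which turned to 0.0013 with a second quantile normalisation and to 0.0084 with median centring. An unadjusted p under 0.05 was found for 4 members higher (8.7%) and 0 lower, beside 2.51% and 4.55% of all genes. The 3 pools lay wholly above control in 6 members (13%), beside 5.29% of all genes, and wholly below in 1 (2.2%), beside 8.12%. The 6 were Rpl12, Rps25, Rps27, Rps28, Rps29 and Rpsa, and the 1 was Rpl4.

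Rps25, a 40S protein needed by some viral internal ribosome entry sites, stood at 6.09, 6.10 and 6.36 in IUGR F2 pools and at 5.75, 5.82 and 5.86 in control pools. The groups did not overlap, and the difference was 0.37 ± 0.11 (limma adjusted p = 0.609). Rpl12, which lies at the base of the 60S stalk, stood at 6.09, 5.45 and 6.01 in IUGR F2 pools and at 5.34, 5.38 and 5.32 in control pools. The difference was 0.50 ± 0.19, with pool 11 close to control. These are dim readings.

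Rps29, a zinc-binding protein of the 40S head, had bright readings. It stood at 13.48, 13.50 and 13.40 in IUGR F2 pools and at 13.32, 13.28 and 13.27 in control pools, a difference of 0.17 ± 0.07 (adjusted p = 0.689). Rps27, another zinc-binding 40S protein, differed by 0.26 ± 0.12, with 7.66, 7.55 and 7.47 in IUGR F2 pools and 7.22, 7.34 and 7.32 in control pools.

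In sons of ON males (ON F2), members lay slightly below control, with 16 higher and 30 lower (50.7% of all genes were lower). The median difference was -0.038 and turned to 0.049 with median centring, where 35 members were higher. It was -0.017 with a second quantile normalisation and -0.025 without pool 13. The 35 brighter members had median deviations of -0.056, 0.0037 and -0.066 in pools 13, 14 and 15. All genes with a mean of at least 8 had -0.058, -0.087 and -0.048 there, so the family was not lower than brighter genes in general in each pool. The unadjusted p was under 0.05 for 1 member higher and 1 lower (2.2% each), beside 5.89% and 9.26% of all genes. The ON F2 pools lay wholly below control in 9 members (19.6%), beside 12.1% of all genes, and wholly above in 1 (2.2%), beside 8.95%. The 9 were Rpl19, Rpl22, Rpl37a, Rpl4, Rplp2, Rps10, Rps27l, Rps3 and Rps7.

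The 1 above control was Rpl12, at 5.72, 5.90 and 5.71 in ON F2 pools against 5.34, 5.38 and 5.32 in control pools (0.43 ± 0.19, limma adjusted p = 0.301). Rpl19, a 60S protein with a long helix that reaches the small subunit, stood at 12.09, 12.19 and 12.16 in ON F2 pools and at 12.35, 12.25 and 12.27 in control pools. The difference was -0.14 ± 0.06 (adjusted p = 0.317). Rplp2 differed by -0.13 ± 0.08, at 11.94, 11.97 and 11.90 in ON F2 pools and 12.03, 12.10 and 12.08 in control pools. Rps3, which lines the entry of the messenger RNA channel, differed by -0.12 ± 0.08, with the lowest value of 11.33 in pool 15.

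The sons were also set against the fathers' generation. In the IUGR lineage the family was even: 24 members were higher in IUGR F2 and 22 lower (41.9% of all genes were higher), with a median of 0.0026 that turned to -0.0074 and -0.0063 under both other scalings. At an unadjusted p under 0.05, 4 members were higher (8.7%) and 0 lower, beside 4.28% and 7.16% of all genes. In the ON lineage 30 members were higher in ON F2 and 16 lower (43.4% of all genes were higher), with a median of 0.029, and of 0.039 and 0.099 under the other scalings. Without ON F1 pool 8 that median was -0.014, and without ON F2 pool 13 it was 0.045. At an unadjusted p under 0.05, 4 members were higher (8.7%) and 1 lower (2.2%), beside 6.6% and 12.7% of all genes.

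Rps20 had the smallest p between the ON generations. It stood at 12.28, 12.42 and 12.33 in ON F2 pools and at 12.22, 11.99 and 11.84 in ON F1 pools, a difference of 0.33 ± 0.09 with no overlap (limma adjusted p = 0.0822). Over the other settings tried, its adjusted p was 0.0585 to 0.852. At its most variable probe set the difference was -0.063. In the IUGR lineage Rps20 stood at 12.40, 12.29 and 12.20 in IUGR F2 pools and at 11.97, 12.10 and 11.98 in IUGR F1 pools, a difference of 0.28 ± 0.09 (adjusted p = 0.310). Both F2 groups overlapped control, and the interaction between lineage and generation was -0.05 ± 0.13. The second bright probe set of Rps20, with a mean of 11.71, differed by 0.22 in the IUGR lineage and by 0.14 in the ON lineage, F2 minus F1. Both bright sets of Rps20 carry the array maker's suffix for some probes shared with unrelated transcripts.

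Rpl37 followed a similar course, at 0.28 ± 0.11 in the IUGR lineage and 0.26 ± 0.11 in the ON lineage (adjusted p = 0.373 and 0.209). Its pools stood at 7.91, 7.83 and 7.62 in IUGR F2 and at 7.55, 7.50 and 7.47 in IUGR F1. They stood at 7.75, 7.84 and 7.82 in ON F2 and at 7.83, 7.41 and 7.38 in ON F1. ON F1 pool 7 overlapped the ON F2 pools, and the IUGR generations did not overlap. Rpl27, a 60S protein, differed by 0.28 ± 0.12 in the IUGR lineage. Its other probe sets, with means of 10.19 and 9.49, differed by -0.062 and 0.19 in that lineage and so disagreed in sign. Rpl12 differed by 0.61 ± 0.19 there (adjusted p = 0.280), with IUGR F1 pools at 5.70, 4.81 and 5.22.

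The largest difference of any member was that of Rps4l, a paralog of the X-linked 40S gene Rps4x, between the ON generations. It stood at 5.52, 6.78 and 6.80 in ON F2 pools and at 7.78, 7.48 and 7.43 in ON F1 pools, a difference of -1.20 ± 0.35 (limma adjusted p = 0.0859). The control pools alone stood at 7.52, 6.88 and 6.05, a range that takes in these pools except the lowest ON F2 and the highest ON F1 pool. IUGR F2 pools stood at 7.19, 6.99 and 7.00 and IUGR F1 pools at 7.51, 6.70 and 6.90. The pool with the lowest level of Rps4l, pool 13, was the one high in exocrine pancreas markers. Without it the difference was -0.78 (adjusted p = 0.222), and over all settings tried the adjusted p was 0.0667 to 0.502. Rpl3l, the striated-muscle paralog of Rpl3, differed by 0.29 ± 0.09 (adjusted p = 0.108). It read 3.95, 4.00 and 4.17 in ON F2 pools and 3.72, 3.90 and 3.61 in ON F1 pools, which is near the bottom of the scale.

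**Figure D3:**
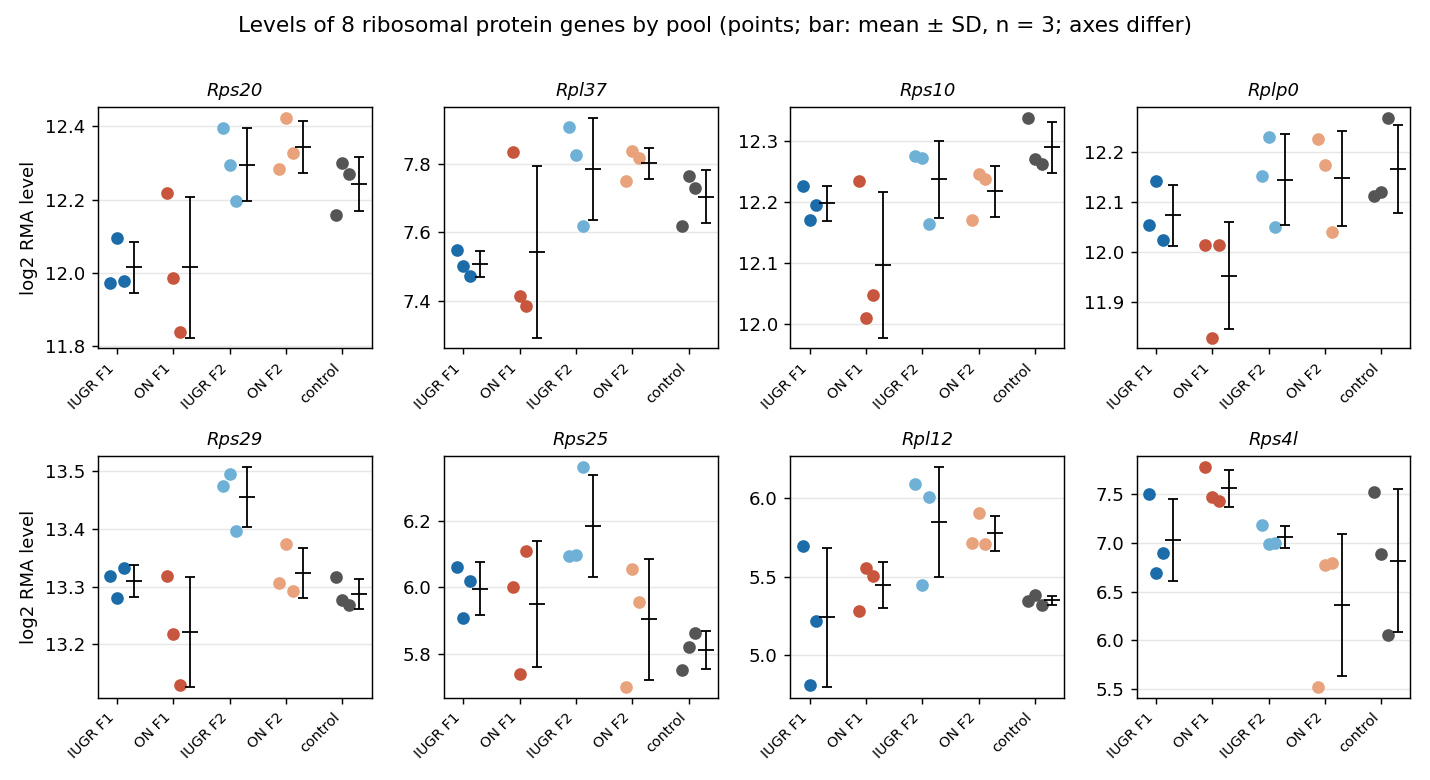
Log2 RMA level of 8 ribosomal protein genes in each pool (points) with the mean and SD of the 3 pools of a group (bars), each gene on its own axis. Rps20 and Rpl37 are lower in most F1 pools than in F2 pools. Rps10 is lowest in ON F1 pools 8 and 9 but not in pool 7, and Rplp0 is lowest in the ON F1 pools. Rps4l is spread widely within the control and ON F2 groups.

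Between the lineages, IUGR F1 stood above ON F1 in 36 members and below in 10 (47.7% of all genes were higher), with a median of 0.057 and of 0.065 and 0.080 under both other scalings. It was -0.0016 without ON F1 pool 8, 0.13 without pool 7 and -0.0080 with the actin gap as a covariate. With an unadjusted p under 0.05, 2 members were higher (4.3%) and 1 lower (2.2%), beside 2.4% and 3.95% of all genes. These were Rpl14 (0.73 ± 0.24, limma adjusted p = 0.700), Rpl3l (0.27 ± 0.09) and Rpl27a (-0.33 ± 0.12). Rps18 differed by 0.13 ± 0.08. In the next generation IUGR F2 stood above ON F2 in 33 members and below in 13 (46.7% of all genes were higher), with a median of 0.028 that turned to -0.028 under median centring and was 0.010 without pool 13.

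Rps25 was the 1 member higher in IUGR F2 with an unadjusted p under 0.05 (2.2%) and 0 were lower, beside 5.37% and 4.77% of all genes. Rps25 differed by 0.28 ± 0.11 (limma adjusted p = 0.425), with 6.09, 6.10 and 6.36 in IUGR F2 pools and 5.70, 6.06 and 5.96 in ON F2 pools. Without pool 13 it was 0.18 (adjusted p = 0.625). Rps4l differed by 0.69 ± 0.35, Rps28, a small protein of the 40S platform, by 0.13 ± 0.07, and Rps29 by 0.13 ± 0.07. The interaction reached an unadjusted p under 0.05 in 1 member above 0, Rps4l (1.22 ± 0.49), and 1 below 0, Rpl3l (-0.40 ± 0.13), beside 4.53% and 3.18% of all genes. Their limma adjusted p values were 0.582 and 0.501. Without pool 13 the interaction of Rps4l was 0.80 and that of Rpl3l -0.45.

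Members with known roles outside translation and the paralogs are given next. Rpsa, also known as the laminin receptor, is a late-joining 40S protein. It averaged 12.10 ± 0.06 in the IUGR F1 pools, 12.06 ± 0.13 in the ON F1 pools, 12.15 ± 0.05 in the IUGR F2 pools, 12.00 ± 0.09 in the ON F2 pools and 12.06 ± 0.05 in control pools (SD, n = 3 each). Rpl11, which enters the 60S subunit with 5S RNA and can bind the p53 regulator MDM2, averaged 11.30 ± 0.0015 in the IUGR F1 pools, 11.26 ± 0.18 in the ON F1 pools, 11.29 ± 0.16 in the IUGR F2 pools, 11.29 ± 0.08 in the ON F2 pools and 11.34 ± 0.07 in control pools. Those 5 means lay within 0.08 of each other, less than the SD of the ON F1 pools.

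Rps27l, a p53-inducible paralog of Rps27, differed from control by -0.08 ± 0.10 for IUGR F1, -0.02 ± 0.10 for ON F1, -0.08 ± 0.10 for IUGR F2 and -0.11 ± 0.10 for ON F2. Rpl39l, a paralog known from testis, read between 3.75 and 4.25 in all pools. Rps6 differed from control by -0.11 ± 0.07 in ON F1 pools, -0.07 ± 0.07 in IUGR F2 pools and -0.09 ± 0.07 in ON F2 pools. For these members, the smallest limma adjusted p against control was 0.530, for Rps6 in ON F1.

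Ribosomal protein genes have many near-identical processed pseudogenes, so that a probe can read more than one transcript. Of the 46 members, 12 were read at a probe set with the array maker's suffix x, for some probes shared with unrelated transcripts. These were Rpl13a, Rpl27, Rpl35, Rpl37, Rpl38, Rpl41, Rpl7, Rps14, Rps2, Rps20, Rps24 and Rps29. A further 2, Rpl22 and Rps9, were read at a set with the suffix s, for probes shared between transcripts. Another 28 ribosomal protein genes, Rplp1 and Rpl5 among them, occur only on probe sets annotated with several symbols and were not analysed as members. Rps27a was not analysed here. Of 17 members with at least 2 probe sets of mean 8 or more, the sets disagreed in sign against control in 10 for IUGR F1, 5 for ON F1, 6 for IUGR F2 and 6 for ON F2. In ON F1 the 5 were Rpl37a, Rpl41, Rps18, Rps27l and Rps29. In IUGR F1 the 10 were Rpl13a, Rpl22, Rpl27, Rpl37a, Rpl41, Rps10, Rps15, Rps18, Rps27l and Rps28. Rpl13a, Rpl27, Rpl7, Rps24 and Rps7 disagreed in both F2 groups, Rps15 in IUGR F2 and Rps14 in ON F2.

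Read as single probe sets, 56 of the 67 bright sets of members were lower in ON F1 than in control, as were 37 for IUGR F1, 45 for IUGR F2 and 49 for ON F2. The 110 probe sets annotated with several symbols, of which at least 1 has a name of the kind that chose the members, are not used for the 46 and gave 92 lower in ON F1 with a median of -0.078. In IUGR F1 76 of them were lower (median -0.029), in IUGR F2 56 (median -0.0045) and in ON F2 68 (median -0.021). They share the arrays with the members.

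The members moved together from pool to pool. Over the 15 pools, the pairwise correlation of the 35 brighter members had a median of 0.497, and 89.9% of pairs were above 0. After the group means were removed the median was 0.604, with 94.1% above 0. The correlation of a member with the mean profile of the others had a median of 0.756, against 0.097 for 3575 other genes with a mean of at least 8. Members ranged from 0.893 for Rplp2 and 0.88 for Rps26 to 0.252 for Rps28 and -0.36 for Rpl27a. Of the other genes, that of Naca, a ribosome-bound chaperone subunit and itself a TOP messenger RNA, was highest at 0.871. These points share 15 arrays, their RNA quality and their normalisation, and are given as a description. Members with a pyrimidine run at the start and members without one were set side by side among the 30 brighter members with a promoter. Their medians were -0.069 (19 genes with a run) and -0.061 (11 genes without) in ON F1 against control, and -0.054 and -0.041 in ON F2.

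The genes that build ribosomes, as opposed to those that make up their protein mass, stood lower in ON F2 pools. Of 58 measured ribosome biogenesis genes of 60 listed, 54 were lower in ON F2 than in control, with a median of -0.19, and of -0.11 and -0.10 under the other scalings. In pools 13, 14 and 15 the list median was -0.14, -0.24 and -0.22. At an unadjusted p under 0.05, 30 (51.7%) were lower and 0 higher, beside the 9.26% and 5.89% of all genes given above, and limma called 0. Without pool 13 the median was -0.22, and with the actin gap as a covariate -0.20. The list median against control was 0.022 for IUGR F1, -0.051 for ON F1 and 0.0047 for IUGR F2. ON F1 thus went the same way by less, with 42 of the 58 lower and pool medians of -0.013, -0.052 and -0.095. At an unadjusted p under 0.05, 10 (17.2%) were lower in ON F1 and 0 higher, beside 5.03% and 8.97% of all genes. IUGR F2 stood above ON F2 in 56 of the 58, with a median of 0.22. Over all genes, the median for ON F2 against control was -0.0026. Genes with a mean of at least 8 lay lower, with median deviations of -0.058, -0.087 and -0.048 in pools 13, 14 and 15. How much of the lower list median is shared with brighter genes in general was not tested.

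Las1l, part of the enzyme that cuts the spacer between the large rRNAs, was the 1 biogenesis gene of 58 called in any comparison, in ON F2 against ON F1, where limma called 1.43% of all genes. It stood at 7.11, 6.87 and 7.03 in ON F2 pools and at 7.39, 7.29 and 7.37 in ON F1 pools, and so fell by 0.35 ± 0.08 on the log2 scale (limma adjusted p = 0.038). Under 25 other settings the difference stayed negative (-0.40 to -0.18), and limma called Las1l under 8 of them (adjusted p of 0.0269 to 0.277). With 1 of the 15 pools left out, the call of Las1l was kept without control pools 1 and 3, IUGR F1 pool 5 and IUGR F2 pool 12, and lost without any of the other 11. It was also lost under both other scalings, at the mean of all probe sets of a gene and with the clock gene Dbp as a covariate.

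Nop58, a core protein of the particles that methylate rRNA, stood at 7.01, 7.04 and 6.52 in ON F2 pools and at 7.64, 7.46 and 7.64 in control pools. The difference was -0.73 ± 0.16 (adjusted p = 0.12), and in ON F1 it was -0.56 ± 0.16. Wdr12, a factor of 60S assembly, differed by -0.45 ± 0.09 in ON F2 against control (adjusted p = 0.0819). Ltv1, a factor of 40S assembly, stood at 7.24, 7.24 and 7.23 in ON F2 pools and at 7.53, 7.59 and 7.47 in control pools, a difference of -0.29 ± 0.07.

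Of RNA polymerase I genes, 19 of 21 were measured and 15 were lower in ON F2, with a median of -0.12, of -0.054 and -0.033 under the other scalings and of -0.15 without pool 13. Its subunit gene Znrd1 stood at 7.62, 7.51 and 7.52 in ON F2 pools and at 7.96, 7.84 and 7.92 in control pools (-0.35 ± 0.07, limma adjusted p = 0.0819). The catalytic subunit gene Polr1a differed by -0.27 ± 0.09. Of translation initiation genes, 28 of 33 were measured and 23 were lower in ON F2, with a median of -0.098. That median was -0.052 with a second quantile normalisation, -0.012 with median centring and -0.13 without pool 13. The subunit-joining factor Eif5b differed by -0.48 ± 0.09 there (adjusted p = 0.0819). The guanine exchange subunit Eif2b1 differed by -0.20 ± 0.08 in ON F2 and by -0.29 ± 0.08 in ON F1.

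Of translation elongation genes, 14 of 15 were measured, and 11 were lower in ON F1 and 11 in ON F2, with medians of -0.12 and -0.050. The exchange factor gene Eef1d differed by -0.16 ± 0.08 in ON F1 and -0.21 ± 0.08 in ON F2. Eef1a2, the elongation factor isoform of muscle and neurons, differed by 0.29 ± 0.09 in ON F2. Of the other TOP transcripts, 23 of 28 were measured, with 17 lower in ON F1 and 17 in ON F2 (medians of -0.11 and -0.058). In ON F1 the TOP median was -0.037 without pool 8 and -0.044 with the actin gap as a covariate, and the elongation median was -0.068 with that covariate. Among them the exchange factor gene Eef1b2 differed by -0.20 ± 0.10 in ON F1 and 0.07 ± 0.10 in ON F2. With median centring the ON F2 medians turned positive, to 0.037 for elongation genes and 0.0285 for the other TOP transcripts. Limma called 0 genes of these 4 lists in each of the 4 comparisons with control.

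Of mTORC1 pathway genes, 33 of 35 were measured. Eif4ebp1, the repressor of cap-dependent translation that mTORC1 phosphorylates, stood at 9.32, 9.27 and 9.36 in ON F2 pools and at 8.87, 9.10 and 8.90 in ON F1 pools. It rose by 0.36 ± 0.08 on the log2 scale between the ON generations (limma adjusted p = 0.0475), the 1 called gene of the 33, beside 1.43% of all genes. Limma called Eif4ebp1 under 8 of 25 other settings (adjusted p of 0.0333 to 0.306), with differences of 0.26 to 0.43. The call of Eif4ebp1 was kept without control pools 1 and 3 and ON F1 pool 8, and lost without any of the other 12 pools. Against control it differed by 0.14 ± 0.08 in ON F2 and by -0.22 ± 0.08 in ON F1. Myc, a transcription factor that drives ribosome genes, differed by 0.48 ± 0.20 in ON F2 against control and by -0.86 ± 0.20 in IUGR F2 against ON F2. Of p53 response genes, 17 of 20 were measured and 11 were higher in ON F1, with a median of 0.035. Their median deviation was 0.20 in pool 8, 0.0046 in pool 7 and -0.035 in pool 9, and the ON F1 median turned to -0.0655 without pool 8 and to -0.014 with the actin gap as a covariate. Trp53inp1 differed by -0.28 ± 0.11 in IUGR F1 and Perp by -0.24 ± 0.10 in IUGR F2 against control. Of 12 listed relatives of ribosomal proteins outside the rule, 7 were measured. Rps19bp1, which binds Rps19, differed by -0.29 ± 0.07 in ON F2, and the nucleolar gene Rsl1d1 by -0.23 ± 0.10 in ON F1.

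Ribosomal proteins of the mitochondrion, which form a separate ribosome for transcripts of mitochondrial DNA, stood lower in ON F2 pools too. Of 76 measured of 78 listed, 74 were lower than in control, with a median of -0.15, and of -0.085 and -0.069 under the other scalings, and of -0.15 without pool 13. The list median was -0.17, -0.20 and -0.11 in pools 13, 14 and 15. At an unadjusted p under 0.05, 33 (43.4%) were lower and 0 higher, beside 9.26% and 5.89% of all genes, and limma called 0. In IUGR F2, 60 of the 76 were lower than in control (median -0.049). At that p 9 (11.8%) were lower and 0 higher, beside 4.55% and 2.51% of all genes. In ON F1, 47 were lower (median -0.024). At that p 10 (13.2%) were lower and 1 (1.3%) higher, beside 5.03% and 8.97% of all genes. The IUGR F1 median was 0.0025. Mrpl27 differed by -0.19 ± 0.07 and Mrpl40 by -0.24 ± 0.09 in ON F2 against control. In IUGR F2 against control they differed by -0.21 ± 0.07 and -0.23 ± 0.09. For comparison, 30 of the 46 cytosolic members were lower in ON F2, with a median of -0.038 that turned positive under median centring.

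**Figure D4:**
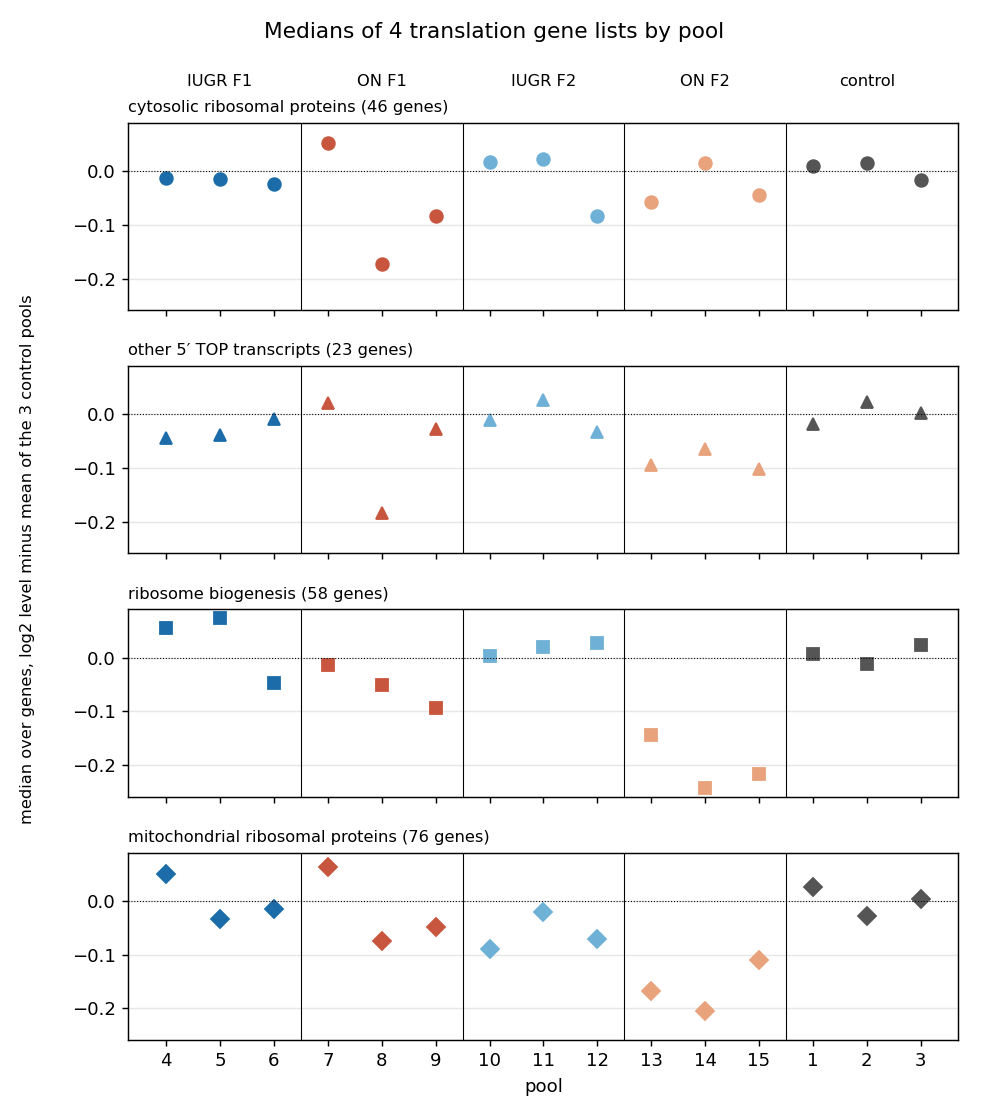
Median log2 deviation from the control mean in each pool for the 46 cytosolic ribosomal proteins, 23 other TOP transcripts, 58 ribosome biogenesis genes and 76 mitochondrial ribosomal proteins. Biogenesis and mitochondrial medians are below 0 in all 3 ON F2 pools. Biogenesis medians are also below 0 in all 3 ON F1 pools, and mitochondrial medians in all 3 IUGR F2 pools. Both cytosolic and TOP medians are lowest in ON F1 pool 8.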

How the data were processed

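The authors deposited log2 values, 1 per probe set and array, from RMA (background correction, quantile normalisation, probe summary) per the submitters' processing notes. The version of RMA was not given in the sources used here. Per the labels, RNA was extracted with Trizol, amplified and labelled with biotin. Shifts common to most of an array are lost in quantile normalisation. Of 45101 probe sets, 64 controls were left out, 34945 had 1 gene symbol, 932 several and 9160 none. Each gene was read at its brightest single-symbol probe set over 15 arrays. Groups came from the titles. No pairing between pools is labelled.

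All 18193 genes were fitted at once in R 4.3.3 with limma 3.58.1: 5 group means, empirical Bayes without trend, two-sided tests, Benjamini-Hochberg adjustment within a comparison at 0.05, and no filter. The script was tested on simulated data. Per comparison the text names called members or, where under 4 were called, the 4 with the smallest p. It also names stalk, 5S particle and paralog members and Rpsa and Rps6, members whose bright probe sets disagree in sign, and per pathway list the called genes or the 2 with the smallest F test p. The members whose groups do not overlap, Rps26, Rps28 and Rpl27a as correlation extremes and Naca were chosen after their values were seen. The members, lists and tests were chosen with earlier results of these data known. Alternatives covered the probe set, filter, scaling, prior, array weights, covariates (Dbp, actin gap) and each pool left out.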

Additional observations from a re-analysis of the deposited data

How the results depend on the processing

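No member was called by limma under any of 194 alternative settings of the 10 tests. Unadjusted counts in the original fits ran from 1 to 7 members. Of 128 recomputed family medians, 122 moved by less than the SD between pools of a group (0.060). That SD is larger than most of the medians, so a median could shrink or change sign and still count among the 122. With the actin covariate ON F1 against control went from -0.067 to -0.019 and IUGR F2 against control from -0.022 to 0.037, both within that SD. Median centring moved ON F2 against control to 0.049 and ON F2 against ON F1 to 0.099. The actin covariate moved IUGR F1 against ON F1 to -0.0080. Leaving out single pools gave -0.0016 to 0.13 for IUGR F1 against ON F1, -0.14 to -0.035 for ON F1 against control, and -0.014 to 0.093 for ON F2 against ON F1. The lowest and highest values came without ON F1 pools 7 and 8, in either order. For IUGR F1, IUGR F2 and ON F2 against control the ranges were -0.026 to -0.0001, -0.039 to 0.031 and -0.064 to -0.025. For IUGR F2 against IUGR F1 and against ON F2 they were -0.0097 to 0.034 and 0.0008 to 0.071. A pool left alone with 1 other was assumed to vary like the other groups. The alternatives with members of at least 10 and without members below 8 were chosen after seeing the data. They drop members from the original fit without refitting, so with 0 members called there they could not give a call. The causes of these shifts were not tested. No paired analysis was possible because the pools are numbered 1 to 15 with no number shared between groups. Signal over background limits the 3 members with a mean below 5, Rps16, Rpl3l and Rpl39l.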
